A study of Oryza sativa with 6 samples.

Results

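The loci described here were high in rice roots after 24 h of chromium(VI) and near their control after a short exposure in the ratios that the authors deposited. A locus was taken when its deposited log2 ratio of treated over control was at least 1.5 on each of the 3 arrays of the 24 h exposure, when the mean over the 3 arrays of the short exposure lay within 0.5 of 0, and when the treated signal of at least 1 of its probes was well above background on all 3 arrays of the 24 h exposure. Ratios of several probes of a locus were averaged. This chose 138 of the 29689 loci on the array. The members were thus chosen by their measured ratios at both exposures and by the treated signal at 24 h, and the values below describe them and test nothing about them.

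Chromium(VI) reaches plant roots as chromate, an oxidizing anion that resembles sulfate and can enter cells through sulfate transporters. Inside the cell it is reduced, which generates reactive oxygen species, and roots are the first organ to meet it and hold most of it. On a dual-colour array the RNA of treated and control roots is hybridised to the same spots, so that each spot reports a ratio.

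Roots came from seedlings of the rice cultivar TN-67 that were 6 days old. One set of seedlings was exposed to 50 µM Cr(VI) for 24 h, another set to 50 µM Cr(VI) for a short time, with material of 1 h and 3 h pooled, and control roots were kept in water for each. There were 3 biological replicates per exposure, each hybridised on 1 array with the treated RNA in Cy5 and the control RNA in Cy3, and the dyes were not swapped, so a bias of a dye for a probe stays in its ratio. All arrays of the 24 h exposure lay on slide 3, those of the short exposure lay on slides 1 and 2, and the effect of exposure and that of slide or scan cannot be told apart. The median signal was 263 to 438.5 in the treated channel and 328 to 535.5 in the control channel. None of the loci matched the reference table of gene names, so the members stay unnamed, their functions are not given, and the label of the tissue could not be set against marker genes. In whole roots, fewer cells of a type and less RNA per cell cannot be told apart.

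The name "induced only at 24 h" asks that a ratio was measured at the short exposure too, and for many members it was not. On the arrays of the short exposure, the signal was well above background in at least 1 channel on all 3 arrays for 62 members, on 1 or 2 arrays for 19 members, and on none for 57 members. In those 57, a short ratio near 0 compared background-level signals of both channels and set no limit on the ratio. Their treated signal was above background on all arrays of the 24 h exposure, by the rule, and on no array of the short exposure. For comparison, 41.3% of the members had no signal in either channel on any array of the short exposure, against 4.02% of the 622 loci that met the same 24 h thresholds with a short mean above 0.5, and against 18.2% of all loci on the array. The shares with signal on all 3 arrays of the short exposure were 44.9% of the members, 85.2% of those 622 loci and 73.0% of all loci. These shares were not tested, since the short ratio chose both sets.

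**Figure D1:**
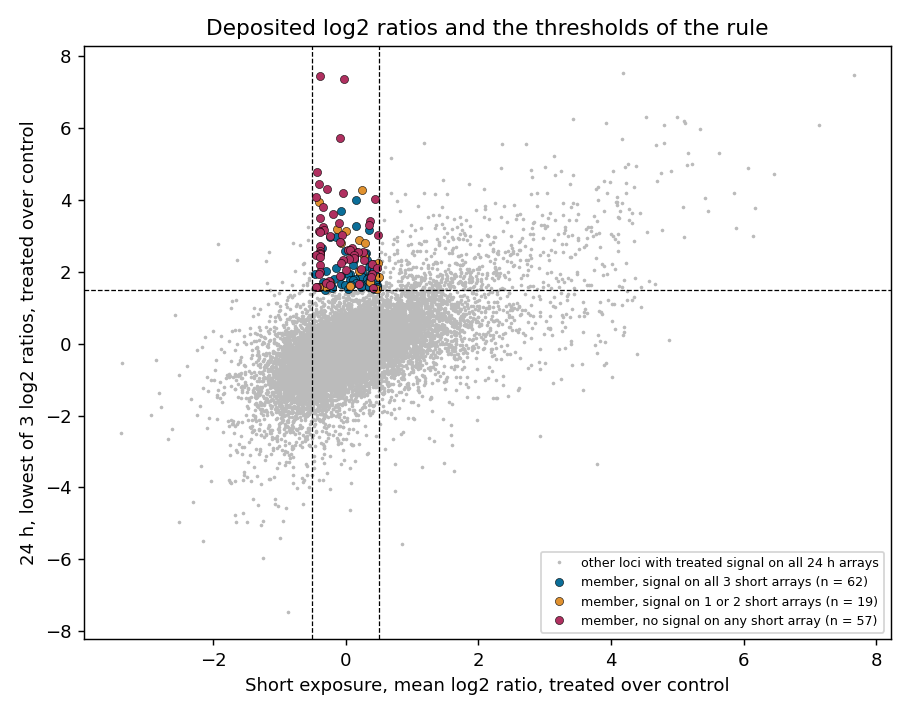
Each point is a locus whose treated signal was above background on all arrays of the 24 h exposure, with the mean deposited log2 ratio of the short exposure on the horizontal axis, the lowest of the 3 deposited log2 ratios at 24 h on the vertical axis, and the thresholds as dashed lines. The 138 members fill the window above 1.5 and within 0.5, and most of those with the highest 24 h ratios belong to the 57 that had no signal at the short exposure.

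The deposited ratios start from background-subtracted signals, in which a control signal near background makes the ratio very large. Ratios were therefore also computed with a background correction that adds an offset to both channels and with loess normalization within each array, from the brightest probe of each locus, and these are called loess ratios below. The offset pulls the ratio of a dim locus toward 0. Among the 62 members with signal at the short exposure, the median of the mean 24 h ratio was 2.16 in the deposited table and 2.01 as a loess ratio. Among the 57 without, it was 3.11 in the deposited table and 0.87 as a loess ratio, so the class with the higher median differed between the processings. The 19 members in between had medians of 2.45 and 1.16. Loess ratios at 24 h were at least 1.5 on each of the 3 arrays for 57 members, of which 44 had signal on all arrays of the short exposure.

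Members with signal in both channels on all 6 arrays numbered 49, and in 28 of these each single deposited short ratio, not only their mean, lay within 0.5. Of those 28, 21 met the rule's thresholds in their loess ratios as well. For loess ratios the short threshold was on the mean, and a single one could lie beyond 0.5, as on short replicate 2 for Os01g0878700, at 0.58. In these 21 loci a mean short ratio within 0.5 and a high 24 h ratio were both measured under either processing. Some other members met this as well and were left out because a single deposited short ratio lay beyond 0.5. Os12g0570700, with 0.98 on short replicate 2, is an example. Over the 21, the mean loess ratio at 24 h ran from 1.78 to 2.92, and at the short exposure from -0.23 to 0.45. The subset of 21 was formed after its values were seen.

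Os06g0136600 on chromosome 6 had the highest mean 24 h loess ratio of those 21. Its loess ratios were 2.87, 2.87 and 3.01 on the arrays of the 24 h exposure, against 0.11, 0.18 and -0.30 on the arrays of the short exposure. The 24 h values differed by little and lay far from all short values, and their mean of 2.92 ± 0.08 (SD, n = 3) is a treated signal 7.54-fold that of the control. Both of its probes gave a mean deposited ratio of 2.97 at 24 h.

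Os01g0694600 on chromosome 1 gave 2.59, 2.51 and 2.38 at 24 h, against 0.27, 0.01 and -0.04 at the short exposure. Os01g0206200 on chromosome 1 had the smallest 24 h spread of the 21, with 1.82, 1.82 and 1.81 at 24 h, against 0.17, 0.19 and -0.06 at the short exposure. Os06g0322400 on chromosome 6 gave 1.97, 2.21 and 2.42 at 24 h, against -0.20, -0.05 and -0.14 at the short exposure. In these 3 loci, as in Os06g0136600, the exposures did not overlap, which the choice of members makes likely. Os02g0530100 on chromosome 2, read by 3 probes, had the lowest mean short ratio of the 21, with 1.98, 2.25 and 1.82 at 24 h, against -0.23, -0.14 and -0.32 at the short exposure.

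Other members with signal on all arrays of the short exposure had a larger spread there. Os12g0570700 on chromosome 12 had 24 h loess ratios of 3.44, 3.25 and 3.29, against short ratios of -0.14, 1.06 and -0.09, so that 1 short array was more than 2-fold high while the other two were near 0. Its mean 24 h loess ratio, 3.33 ± 0.10 (SD, n = 3), was the highest of the 62. Os07g0677600 on chromosome 7 gave 3.45, 3.15 and 2.91 at 24 h, against 0.10, -0.10 and 0.13 at the short exposure. Its short values were tight, but its control signal was above background on 2 of the 3 arrays of the short exposure.

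Os09g0381400 on chromosome 9 gave 1.86, 2.10 and 2.36 at 24 h, against 0.56, 0.34 and 0.30 at the short exposure. All 3 of its short ratios were above 0, which was common among the members with signal: the median short loess ratio of the 62 was 0.25. Os03g0760800 on chromosome 3 gave 2.48, 2.37 and 1.95 at 24 h, against 0.32, 0.39 and 0.54 at the short exposure. Os02g0628800 on chromosome 2 gave 2.08, 2.01 and 1.80 at 24 h, against 0.51 and 0.50 on short replicates 2 and 3. Its spot on short replicate 1 was left out as an outlier. Of the other members in this class, Os01g0322700 and Os09g0274800 had mean loess ratios of 2.80 and 2.81 at 24 h, and Os01g0836600 had 3.10. In Os09g0274800 the short loess ratios were 0.30, 0.13 and 0.17, with the control above background on 1 array of the short exposure. In Os01g0836600 the deposited short ratios were -0.29, 0.915 and -1.32, with each channel above background on 2 arrays of the short exposure. Os12g0143800 was lower at 24 h, with 1.66, 1.39 and 1.45, against -0.05, -0.06 and -0.04 at the short exposure. Its deposited short ratios were -0.69, -0.21 and -0.17, and each of its channels was above background on 2 arrays of the short exposure. The mean deposited short ratio of 1 of its 3 probes was -0.72, beyond the threshold. In Os01g0322700 the probes disagreed at the short exposure, with mean deposited ratios of -1.07 and 1.37. Only their average lay within the short threshold, and the mean short loess ratio of this locus was 0.525, beyond 0.5. The loci in this paragraph and the paragraph before it were picked after their values were seen.

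Among the 19 members with signal on 1 or 2 arrays of the short exposure, Os03g0347500 on chromosome 3 gave 4.09, 3.94 and 3.62 at 24 h, against 0.22, -0.10 and -0.18 at the short exposure. Its treated signal was 11.09, 11.33 and 11.36 at 24 h, against 6.94, 6.30 and 6.21 at the short exposure. The exposures lay far apart in this channel, and the treated signal was above background on 1 array of the short exposure. The control at 24 h was above background on all 3 arrays for 75 of all members, on 1 or 2 for 24, and on none for 39.

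**Figure D2:**
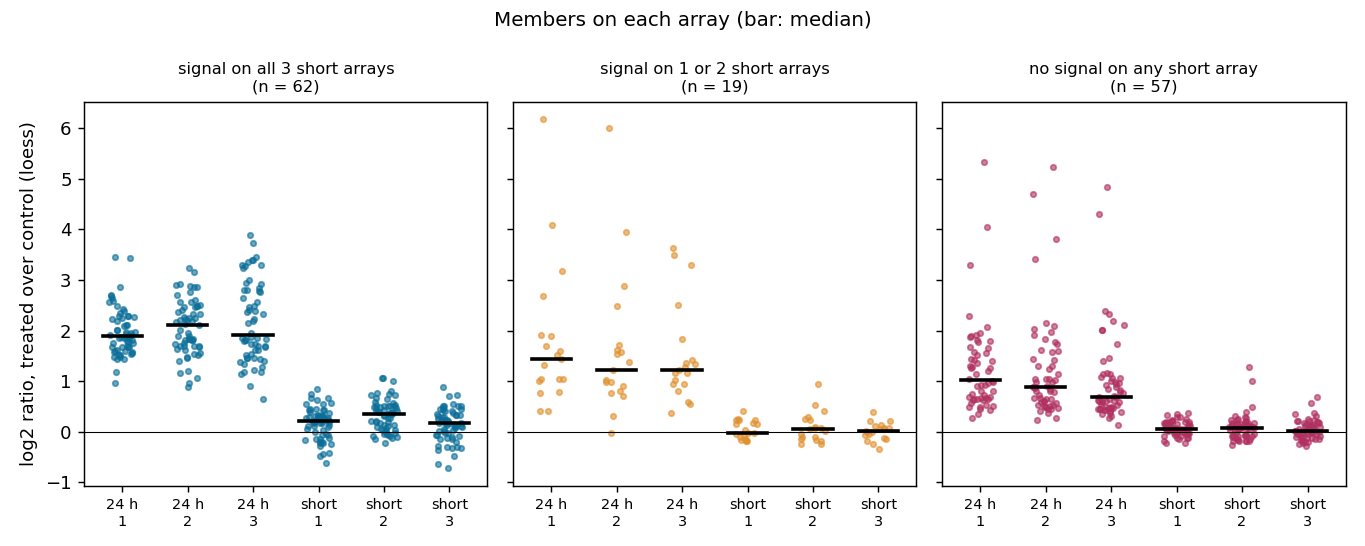
Loess log2 ratios of treated over control are drawn for each member on each of the 6 arrays, in 3 panels by whether its signal was above background on the arrays of the short exposure, with bars at the medians. At 24 h the members with signal on all arrays of the short exposure center near 2 and those with none near 1, and at the short exposure all 3 panels lie near 0.

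Ordered by the lowest of their 3 deposited 24 h ratios, the first 10 members were Os04g0442900, Os02g0593200, Os04g0150300, Os03g0129400, Os03g0421300, Os03g0284700, Os03g0694000, Os08g0307600, Os01g0607000 and Os12g0488900. In 9 of these 10 neither channel was above background on any array of the short exposure, and in Os03g0694000 the treated channel was above background on 1. Where the control was not above background on any array of the 24 h exposure, its level was not measured, and the loess ratio sets the treated signal against a background-level control, so it gives no measured fold. This was so for 39 members, 7 of the first 10 among them.

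Os04g0442900 on chromosome 4 stood first, with deposited ratios of 8.47, 8.52 and 7.44 at 24 h. Its loess ratios were 4.69 and 4.31 on 24 h replicates 2 and 3, with the spot of replicate 1 left out as an outlier, against -0.08, -0.07 and 0.02 at the short exposure. The control was not well above background on any of the 6 arrays, so no fold is given. Os02g0593200 on chromosome 2 gave loess ratios of 5.33, 5.24 and 4.84 at 24 h, against -0.23, 0.16 and -0.15 at the short exposure. Its treated signal on the log2 scale was 11.15, 11.28 and 10.91 at 24 h, against 6.14, 6.38 and 6.33 at the short exposure. Its treated signal was thus high on every array of the 24 h exposure and at background at the short exposure, and its control was above background on 1 array of the 24 h exposure.

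Os03g0694000 on chromosome 3 had the highest mean 24 h loess ratio of all members and also a wide spread, with 6.18, 6.01 and 3.29. At the short exposure it gave -0.05, 0.53 and -0.15. Its 24 h mean was 5.16 ± 1.62 (SD, n = 3), and without 24 h replicate 3 it was 6.09. On that replicate the treated signal was 10.76, against 12.22 and 12.49 on replicates 1 and 2, and the control signal was 7.92, against 6.83 and 7.02. On replicate 3 the treated signal was thus lower and the control signal higher than on the other two.

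Os01g0607000 on chromosome 1 gave 4.05, 3.82 and 2.32 at 24 h, against 0.03, -0.19 and -0.21 at the short exposure. Os04g0150300 on chromosome 4 gave 3.30, 3.42 and 2.10 at 24 h, against 0.03, 0.10 and 0.20 at the short exposure. In both loci, as in Os03g0694000, 24 h replicate 3 was the low one. Os03g0129400 on chromosome 3, read by 3 probes, gave 1.96, 1.91 and 1.74 at 24 h, against -0.23, -0.27 and -0.17 at the short exposure.

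The other 4 of the first 10 had low 24 h loess ratios beside high deposited ones. The gap was not particular to them: Os03g0129400 averaged 1.87 as a loess ratio, against 4.92 in the deposited table, and Os04g0150300 averaged 2.94, against 6.86. Os03g0421300 on chromosome 3 averaged 1.54 ± 0.08 (SD, n = 3) as a loess ratio, against 4.85 in the deposited table. Os08g0307600 on chromosome 8 averaged 1.54 ± 0.40 (SD, n = 3), against 4.54. Os12g0488900 on chromosome 12 averaged 1.27 ± 0.26 (SD, n = 3), against 4.34, and Os03g0284700 on chromosome 3 averaged 1.15 ± 0.11 (SD, n = 3), against 4.49. In the other 4, as in Os03g0129400 and Os04g0150300, the control was not above background on any of the 6 arrays. The size of the ratio differed between the processings.

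**Figure D3:**
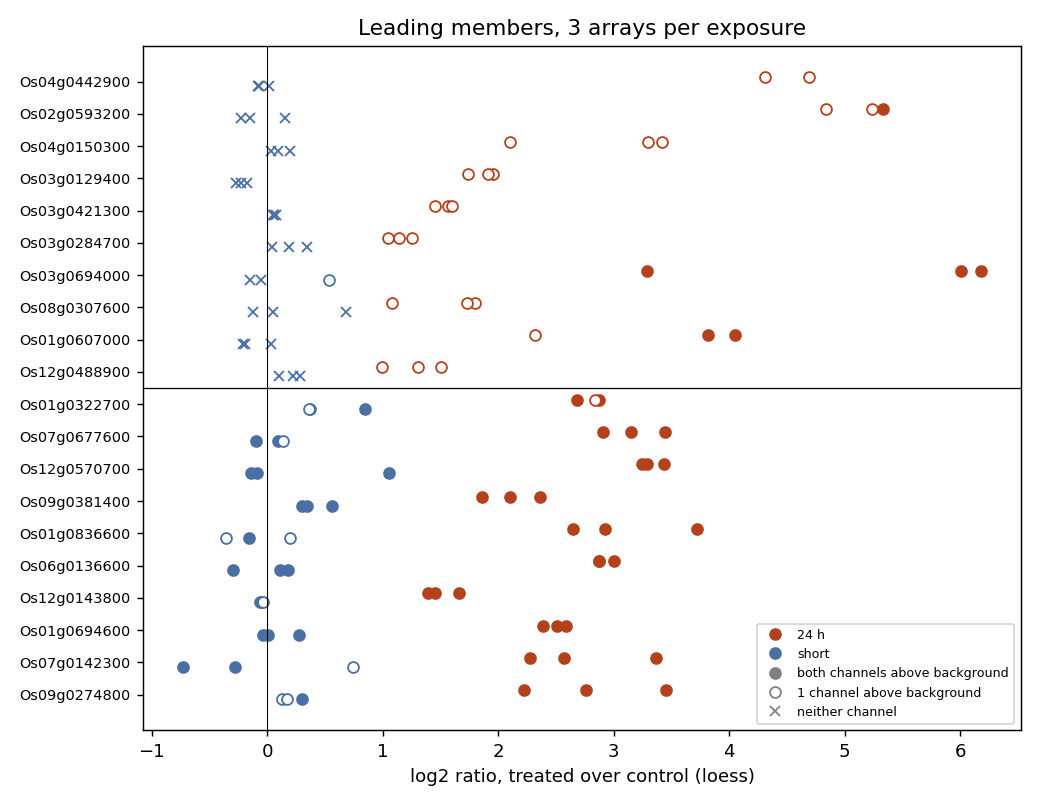
Loess log2 ratios on the 3 arrays of each exposure are drawn for the first 10 members by the rule's own order (above the line) and for the first 10 among those with signal on all arrays of the short exposure (below the line). Filled points have both channels above background, open points 1 channel, and crosses neither, and the upper rows are crosses at the short exposure except for 1 point.

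The mean over the 3 arrays of the short exposure could be near 0 while the arrays were not. Each of the 3 deposited short ratios lay within 0.5 for 39 members, 36 of which had signal on all arrays of the short exposure. In 25 members at least 1 deposited short ratio was over 1 in size, and 31 members held values beyond 0.5 on both sides of 0. Os03g0145900 on chromosome 3 is the plainest case: its deposited short ratios were 1.46, 1.40 and -2.87, with a mean of -0.0025. At 24 h it gave 3.66, 3.18 and 3.13. Loess ratios at the short exposure, in which dim signals are pulled together, were within 0.5 on average for 130 members.

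Both channels were next compared between the exposures, each normalized on its own by quantiles, since a ratio alone does not show which channel moved. The treated channel was higher at 24 h than at the short exposure by a median of 1.31 over the fitted members, against -0.01 over all genes tested. The control channel was higher by a median of 0.09, against -0.02 over all genes. With limma over all genes tested, 130 of 137 fitted members were called higher in the treated channel and 0 lower, the lowest difference being -0.05, where 18.6% of all genes were called higher and 19.3% lower. In the control channel 8 members were called higher and 1 lower, where 2.37% of all genes were called higher and 2.07% lower. Of the 130 called higher in the treated channel, 53 had no signal on any array of the short exposure. The median treated difference was 1.92 for members with signal on all arrays of the short exposure and 0.78 for those with none. The rule used both channels through their ratio and also asked for treated signal at 24 h, so nothing is read from these counts and medians. The control-channel calls also hang on single arrays: of all genes tested, 1047 were called in that channel, and 0 were called without short replicate 3, without 24 h replicate 1 or without 24 h replicate 2 (5169, 4314 and 4397 at an unadjusted p under 0.05). Without short replicate 1, short replicate 2 or 24 h replicate 3, there were 3950, 400 and 97.

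By more than 1 on the log2 scale, the control channel was higher on the arrays of the 24 h exposure for 14 members and lower for 1, Os01g0737600 on chromosome 1. That control signal was lower by 1.02 on average, was not called, and overlapped between the exposures, with 11.11, 10.06 and 11.15 at 24 h, against 12.27, 11.02 and 12.09 at the short exposure. The 1 member called lower in the control channel was Os02g0530100, with a smaller difference of -0.78. Its control signal at 24 h was 11.03, 11.12 and 11.43, against 11.96, 11.90 and 12.05 at the short exposure. Its treated signal was 12.65, 12.99 and 12.87 at 24 h, against 11.31, 11.29 and 11.26 at the short exposure. In this locus the channels moved in opposite directions and neither overlapped between exposures. In Os06g0322400 both channels were higher at 24 h, the control at 9.45, 9.52 and 8.86, against 8.12, 7.58 and 7.68 at the short exposure, and the treated by 3.72 on average.

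**Figure D4:**
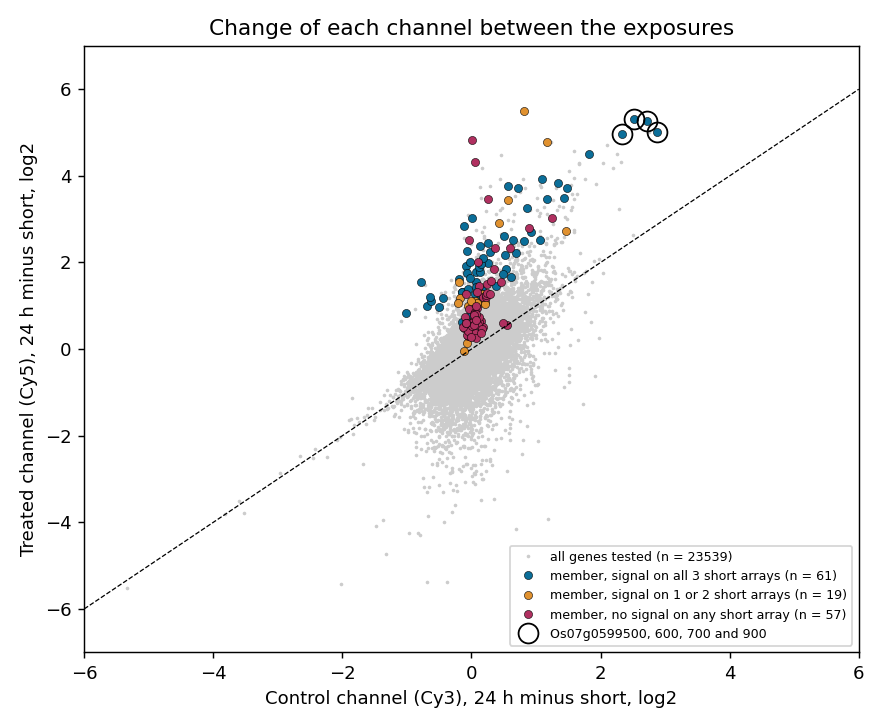
The difference between the exposures, 24 h minus short, is drawn on the log2 scale for the control channel (horizontal) and the treated channel (vertical), for the members by class and for all 23539 genes tested in gray, and the dashed line marks equal differences. Most members lie near 0 on the horizontal axis and above the line, and the 4 circled neighbours on chromosome 7 lie far to the right, with control differences of 2.33 to 2.87.

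A run of 4 neighbouring loci on chromosome 7, Os07g0599500, Os07g0599600, Os07g0599700 and Os07g0599900, were all members and had the 4 highest control-channel differences of the members, 2.52, 2.87, 2.73 and 2.33, of which that of Os07g0599500 was called and the other three were not. Their mean loess ratios at 24 h were 2.78, 2.34, 2.29 and 2.71. Os07g0599500 gave 2.35, 2.60 and 3.40 at 24 h, against -0.22, 0.72 and -0.28 at the short exposure. Its treated signal was 13.66, 13.89 and 14.13 at 24 h, against 8.91, 7.89 and 8.97 at the short exposure, and its control signal was 11.62, 11.62 and 11.07, against 9.55, 7.50 and 9.70. Both channels were thus higher on every array of the 24 h exposure, the treated by 5.30 and the control by 2.52. In all 4 loci short replicate 2 had the lowest control signal and the highest short ratio of the 3.

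The short ratios of the run differed in sign between arrays. Os07g0599900 gave 2.42, 2.46 and 3.24 at 24 h, against -0.44, 1.06 and -0.32 at the short exposure. Os07g0599700 gave 2.10 and 2.49 on 24 h replicates 1 and 2, with replicate 3 left out as an outlier, against -0.63, 0.76 and -0.48 at the short exposure. Os07g0142300, elsewhere on chromosome 7, had a like pattern, with 2.28, 2.57 and 3.36 at 24 h, against -0.28, 0.75 and -0.73 at the short exposure. On short replicate 2 the control signal was lower by more than 1 on the log2 scale than on both other arrays of that exposure for 8 members, these 5 among them. The neighbouring loci Os07g0599300 and Os07g0599400, which are not members, had 24 h loess ratios of 1.16 and 1.57. Neighbouring genes can be near-identical copies that share probe signal, which was not tested, so the 4 loci may not be independent readings.

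Some members lay near each other in the numbering of loci. Another member was found within 5 array loci on either side for 16 of 138 members, or 11.6%, against 4.39% of all array loci that had a member so near, and no test was made. The 16 formed 7 groups: the run of 4 and 6 pairs. The pairs were Os03g0145600 with Os03g0145900, Os05g0120000 with Os05g0120200, Os06g0322400 with Os06g0323100, Os07g0524200 with Os07g0525000, Os07g0677400 with Os07g0677600, and Os10g0438600 with Os10g0439200. The loci of a pair could differ widely in size: Os07g0677600 had a mean 24 h loess ratio of 3.17 and Os07g0677400 one of 0.56, and Os06g0322400 had 2.20 and Os06g0323100 0.55.

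By the chromosome in their names, 28 members lay on chromosome 1, 20 on chromosome 3 and 15 on chromosome 5, and 6 each on chromosomes 8, 9, 10 and 12. Per 1000 array loci, this was between 2.96 on chromosome 8 and 6.72 on chromosome 1. With so few loci per chromosome these densities have wide counting error, and no chromosome is singled out.

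**Figure D5:**
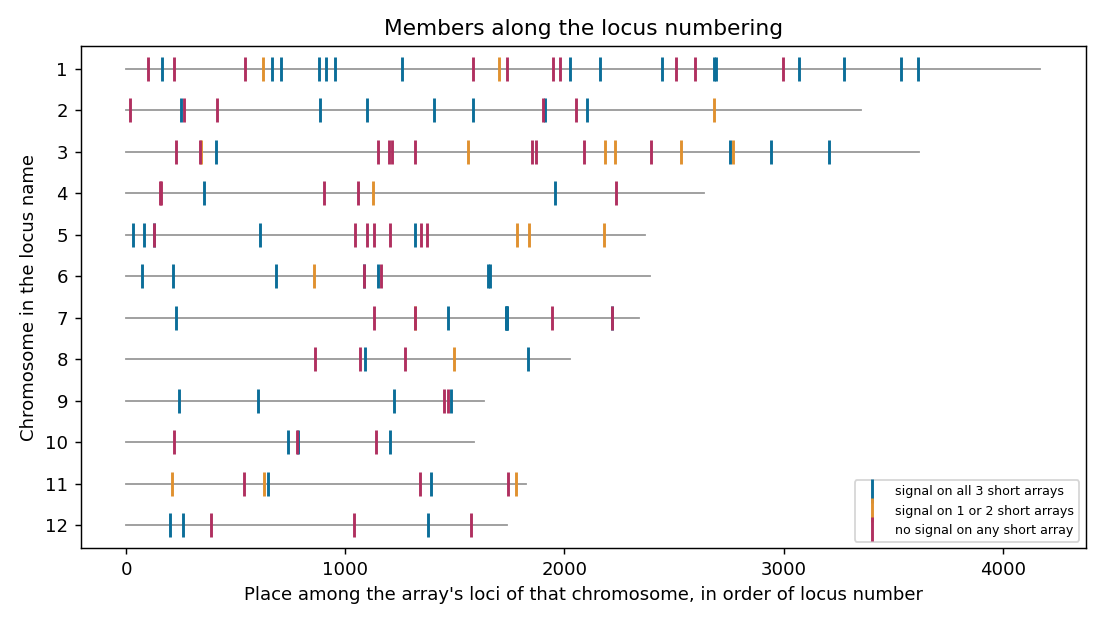
Each tick is a member, placed by its order among the array's loci of its chromosome and coloured by signal at the short exposure. Members are spread over all 12 chromosomes, with the run of 4 on chromosome 7 drawn as 1 thick mark.

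A single probe read 112 of the members. Of the 26 with several probes, each probe on its own met the ratio thresholds in 8, and in none was a probe's mean 24 h ratio below 0. In 14 of the 26 at least 1 probe had a mean short ratio beyond 0.5. In Os09g0550500 on chromosome 9, one probe had mean deposited ratios of 3.70 at 24 h and 1.08 at the short exposure, and the other 0.19 at 24 h and -0.41 at the short exposure. Averaging these put the locus inside the short threshold, while the brighter probe alone was above it. In Os04g0632300 on chromosome 4, the probes had mean 24 h ratios of 4.48 and 0.49. Probe names carried the tag mRNA for 84 members, or 60.9%, against 69.0% of all loci.

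At the thresholds the members passed without a gap to the loci outside. For the 24 h threshold, the members Os07g0555100 and Os05g0215300 had lowest ratios of 1.504 and 1.516, and the loci Os05g0585700 and Os09g0436500, outside, both had 1.499. For the upper short threshold, Os11g0701400 and Os01g0602200 had means of 0.497 and 0.490, and Os11g0559600 and Os12g0142900, outside, had 0.509 and 0.515. For the lower one, Os06g0602400 and Os06g0323100 had -0.459 and -0.454, and Os01g0855000 and Os02g0706900, outside, had -0.501 and -0.545. Of the 783 loci past the 24 h thresholds, 622 had short means above 0.5 and 23 below -0.5. Without 24 h replicate 3, the rule gave 220 members, and that array held the lowest 24 h loess ratio for 69 of the 135 members with all 3 values. Of those 69, 35 had no signal on any array of the short exposure. Among 60 such members with signal on all arrays of the short exposure, 24 h replicate 3 was the lowest for 27 and the highest for 26. The mirrored rule gave 147 loci. It asks for ratios of at most -1.5 on each array of the 24 h exposure and a short mean within 0.5. It also asks for control signal above background on all arrays of the 24 h exposure.

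In the limma fit over all genes tested, 137 of the members had values. A 24 h ratio at least 2-fold higher with an adjusted p under 0.05 was called for 99 of them, where 4.88% of all genes were called. The difference between the exposures, 24 h minus short, was called at least 2-fold higher for 96, where 2.2% of all genes were called. At the short exposure 28 members were called higher and 3 lower, where 30.5% of all genes were called higher and 24.1% lower. Of the 61 fitted members with signal on all arrays of the short exposure, 23 were called higher and 2 lower. Of the 57 with no signal there, 4 were called higher and 1 lower. No member called at the short exposure reached 2-fold, with mean short loess ratios of all members between -0.23 and 0.73. With Agilent's processed signals the split over all genes was 5714 higher and 7700 lower, in place of 7185 and 5678. The rule used these contrasts, so the counts say nothing beyond it. Of the 96, 58 had signal on all arrays of the short exposure and 23 on none. The fitted difference was below 0 for Os07g0635200, at -0.13, and for Os11g0689500, at -0.012, neither of which had signal at the short exposure. Both were above 0 with median centring, at 0.16 and 0.24. From Agilent's processed signals they were above 0 by the choice of members, since the rule used those values through the deposited table. The number of members below 0 was 0 to 3 over the alternatives. Os06g0219500 had no fitted value because its spots were left out as outliers.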

How the data were processed

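The authors deposited scanner output of Agilent Feature Extraction, whose version is 10.7.1.1 per the file headers, with median foreground and background intensity on a linear scale. The authors' deposited series table holds log2 ratios of treated over control, which lay within 0.001 of the log2 ratio of Agilent's processed signals for 99.8% or more of the probes on every array, so scale and direction are settled, and its column medians ran from -0.178 to 0.0385. It is not centred. The rule was applied to it. The normalization steps of the deposited values beyond this are not given in the sources used here.

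Loess ratios were made with limma 3.58.1 (R 4.3.3), by normexp correction of these intensities with an offset of 50 followed by loess within arrays. Control spots had weight 0, and outlier spots (163 to 1936 of 43734 per array) were left out. The brightest probe of a locus was kept. A gene was tested when either channel was well above background on at least 3 of the 6 arrays with at least 2 values per exposure, which left 23539 of 30277 genes. One fit with lmFit and eBayes gave the 24 h ratio, the short ratio and their difference, with Benjamini-Hochberg adjustment. Each channel was also normalized by quantiles and fitted alone. The number of arrays limits the precision. Only the fit of the ratios was tested on simulated data, with known changes added to simulated log2 ratios.

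The members and lists were chosen with earlier results of these data known. Values are given, by a rule, for the first 10 members by lowest deposited 24 h ratio and the loci at each threshold. The rule also covered members whose probes disagree in direction at 24 h, but no member was of this kind. Values of other loci were chosen for the report after they were seen. The parts of that rule that needed gene descriptions could not be applied, since 0 of 29689 loci and 0 of 40822 probe accessions matched the reference. Deviations of arrays with the same replicate number correlated at -0.234, -0.117 and -0.1, so the numbers were not taken to pair the arrays.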

Additional observations from a re-analysis of the deposited data

Results flagged for a closer look

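The response differed between the exposures in the limma interaction contrast, 24 h minus short, for 517 genes that were at least 2-fold higher at 24 h, and 96 of these were among the 137 fitted members. For the members this difference is what chose them, and it adds no evidence. The exposures also lay on different slides.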

How the results depend on the processing

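The list depends on the values and thresholds used. In place of 138 members, loess ratios gave 84 loci, 52 of them shared. A 24 h threshold of 1 gave 300 and one of 2 gave 80. A short mean within 0.3 gave 71 and within 1 gave 242. Asking for each short ratio within 0.5 gave 39, and asking for signal on all 3 arrays of the short exposure gave 62. Leaving out 1 array gave 125 to 220. With Agilent's processed signals, 1873 genes in place of 1149 were called at least 2-fold higher at 24 h, 1855 in place of 1083 at the short exposure and 943 in place of 517 for the difference. Of the members, 137 were then called at least 2-fold higher for the 24 h ratio and 132 for the difference. The rule used these signals through the deposited table, so neither count adds evidence. Over the other alternatives the members called ranged from 90 to 101 for the 24 h ratio and from 87 to 99 for the difference. Of the single values of the members named in the report, 143 moved by more than 1 SD and 13 changed sign. Those 13 belonged to 3 loci whose reported difference, 24 h minus short, was uncalled and close to 0. Os07g0635200 gave 2.51 from the processed signals, 0.16 with median centring, 0.32 without the short arrays on slide 2 and -0.36 to 0.21 when 1 array was left out, in place of -0.13. Os11g0689500 gave 2.00, 0.24, 0.32 and -0.18 to 0.18, in place of -0.012. The values of 2.51 and 2.00 come from the signals that the rule used, so they follow from the choice of members. Os07g0525000 gave -0.065 to 0.17 when 1 array was left out, in place of 0.031. Median centring put the median of all genes at -0.10 for the 24 h ratio and -0.16 for the difference, and called 5017 genes higher and 8726 lower at 24 h in place of 7915 and 7269, and 1842 higher and 6399 lower in the difference in place of 3846 and 5239.

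The replicate block, in which same-numbered arrays are paired, gave 519 genes for the difference and the same number of members, 96. In the control channel it called 0 genes (5397 at an unadjusted p under 0.05) in place of 1047. Control-channel counts were 3826 with median centring, 0 to 3950 when 1 array was left out, and 290 without the short arrays on slide 2, an alternative chosen after seeing the data. The treated channel gave 5843 without those arrays in place of 8921. The cause of these shifts was not tested. Where neither channel was above background, no ratio could be measured, whatever the processing.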
